A study of Mus musculus with 4 samples.

Results

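To follow the passage of glucose into and lactate out of mouse embryonic stem cells (mESCs), 9 genes were read out of an RNA-seq experiment: 5 facilitative glucose transporters of the Slc2a family (Slc2a1, Slc2a2, Slc2a3, Slc2a4 and Slc2a8), 3 monocarboxylate transporters of the Slc16a family (Slc16a1, Slc16a3 and Slc16a7), and Bsg. They were chosen by symbol with earlier results of these data known, and all 9 were found among the 37620 genes of the count table. The comparison was of MUT_CTCF with WT_CTCF mESCs, with 2 biological replicates each, cultured in DMEM with serum and LIF. Both lines derive from CTCF-mAID mESCs, whose own tagged CTCF is destroyed on addition of auxin, and both received 0.5 mM auxin. WT_CTCF cells carry a vector for wild-type CTCF, and MUT_CTCF cells carry a vector for CTCF with the T668A substitution, which removes the site of O-GlcNAc, a sugar added to serine and threonine residues by the transferase OGT. Each line is a picked clone whose exogenous CTCF was close to the endogenous level, so that a difference between the clones and an effect of the substitution cannot be told apart. Endogenous CTCF was replaced in these lines by 48 h of auxin, a time that is not stated for the RNA-seq libraries separately. The glucose content of the medium is not given in the sources used here.

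Glucose enters most cells down its gradient through GLUT proteins, the products of Slc2a genes, which differ in affinity and in where they are used. Cells that turn glucose into lactate export it together with a proton through monocarboxylate transporters (MCT proteins), which reach the plasma membrane with the help of the glycoprotein basigin, the product of Bsg. Pluripotent stem cells are known for a high rate of glycolysis. Glucose also feeds the hexosamine pathway, which makes the sugar donor that OGT uses.

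The counts summed to between 40524694 and 40977464 per library. Of the 6 pluripotent stem cell markers looked up, the summed level was 4964 to 4977 CPM (counts scaled by library size) in WT_CTCF and 4955 to 4973 CPM in MUT_CTCF libraries. The summed level of 7 primitive and visceral endoderm markers was 7.49 to 8.11 CPM in WT_CTCF and 9.67 to 12.5 CPM in MUT_CTCF libraries, with Ttr at 0 counts in 3 libraries and 1 count in the other. The sum of 6 trophectoderm markers was 51.2 to 54.6 CPM against 43.3 to 45.2 CPM, and that of 6 fibroblast markers 45.5 to 47.0 CPM against 46.3 to 51.8 CPM, with none of these markers at 0 in all 4 libraries. Of the markers, Sox2 was higher (log2 fold change 0.095, adjusted p = 0.0358), and the trophectoderm genes Cdx2 (-0.97, adjusted p = 0.000227) and Krt8 (-0.30, adjusted p = 0.0319) were lower by edgeR's quasi-likelihood test, while no endoderm or fibroblast marker passed. The part of these markers in the results below was not tested. In such bulk samples, fewer cells of a type and less RNA per cell cannot be told apart.

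The rise was graded among the transporters. Slc16a3, the lactate exporter MCT4, was 2.04-fold higher in MUT_CTCF than in WT_CTCF mESCs, Slc2a1 (GLUT1) 1.38-fold, Slc2a3 (GLUT3) 1.13-fold and Bsg 1.08-fold. These 4 genes had an adjusted p under 0.05, and no transporter gene was lower at that threshold. Across the 16264 genes with enough counts to be tested, 1.56% were higher and 1.61% were lower at this threshold (edgeR's quasi-likelihood test, Benjamini-Hochberg adjustment). Of the other 5 transporters, Slc16a1, Slc2a4 and Slc2a8 did not pass, and Slc2a2 and Slc16a7 had too few counts to be tested. The median log2 fold change of the 7 tested genes was 0.17, against 0.0034 over all tested genes. As the genes were chosen with earlier results of these data known, these counts and medians are no independent test of the group. All log2 fold changes are of MUT_CTCF over WT_CTCF. Normalized counts are counts brought to a common library size by edgeR's TMM method.

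**Figure D1:**
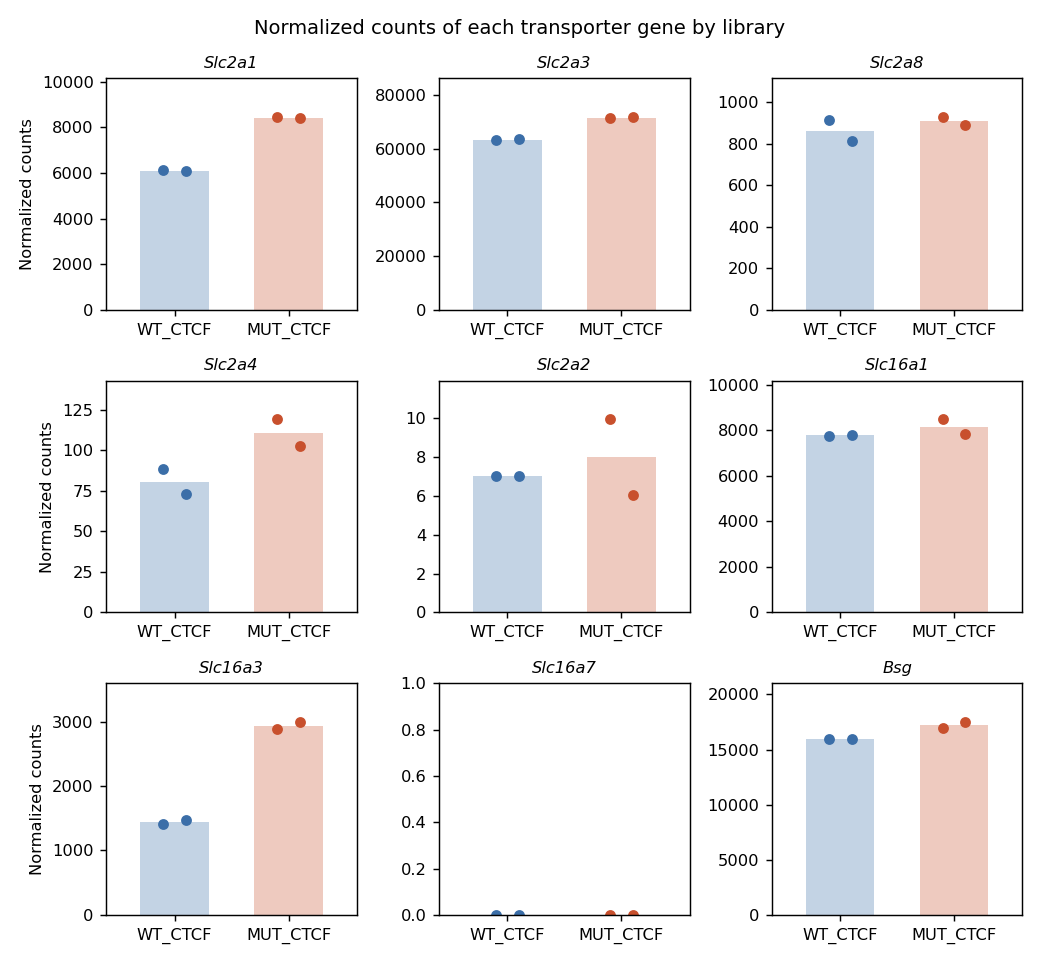
Normalized counts (vertical axes, linear and from 0, a scale for each gene) of the 9 genes in WT_CTCF (blue) and MUT_CTCF (red) mESCs, where each point is a library and each bar the mean of 2 libraries. The groups lie far apart for Slc16a3 and Slc2a1, are apart by less for Slc2a3 and Bsg, overlap for Slc2a8 and Slc2a2, and Slc16a7 is at 0 throughout.

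Promoter sequences are shown for Slc16a3 and Slc2a1, which rose most, and for Slc16a1, whose product also carries lactate and which did not pass. The set of RefSeq promoters used here (build GRCm38.p6), which is not complete, included 5 of the 9 genes: Slc2a1, Slc2a2, Slc2a8, Slc16a1 and Slc16a3. Each run below is the 250 bases before the annotated start, 5′ to 3′ on the strand of the gene. Capitals mark ACGTG and GCGTG, or their reverse complements, the core letters that hypoxia-inducible factors (HIF) bind.
Slc16a3 (chr11:120948817-120949066, plus strand): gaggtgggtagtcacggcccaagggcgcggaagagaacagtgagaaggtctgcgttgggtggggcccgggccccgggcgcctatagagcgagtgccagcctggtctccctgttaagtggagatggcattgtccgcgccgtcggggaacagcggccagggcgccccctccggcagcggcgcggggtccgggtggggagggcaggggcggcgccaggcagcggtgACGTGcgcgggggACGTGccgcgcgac
Slc2a1 (chr4:119108495-119108744, plus strand): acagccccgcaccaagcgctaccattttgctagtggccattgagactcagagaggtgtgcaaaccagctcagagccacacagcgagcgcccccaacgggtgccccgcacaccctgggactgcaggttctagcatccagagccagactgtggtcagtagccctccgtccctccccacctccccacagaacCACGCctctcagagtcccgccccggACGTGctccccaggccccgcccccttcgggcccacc
Slc16a1 (chr3:104638414-104638663, plus strand): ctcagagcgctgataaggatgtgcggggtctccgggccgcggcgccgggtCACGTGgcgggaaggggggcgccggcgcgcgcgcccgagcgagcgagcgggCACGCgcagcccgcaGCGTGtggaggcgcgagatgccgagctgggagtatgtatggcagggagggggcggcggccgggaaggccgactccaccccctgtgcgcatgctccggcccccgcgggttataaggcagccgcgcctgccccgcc

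The Slc16a3 promoter held ACGTG on the plus strand at -27 and -14, counted from the start, and no GCGTG. The Slc2a1 promoter held ACGTG at -36 on the plus strand and GCGTG at -61 on the minus strand. In the Slc16a1 promoter, the E-box CACGTG at -200 holds ACGTG on both strands, and GCGTG stood on the minus strand at -149 and on the plus strand at -134. The Slc2a8 promoter held 1 GCGTG, and the Slc2a2 promoter held neither. Over 32851 promoters of the same length, 16.57% held ACGTG, 28.16% held GCGTG, 38.6% held at least 1 of these, and 6.02% held CACGTG. The GC box GGGCGG, bound by SP1, was found once in each of Slc16a3 and Slc16a1 and at 2 places in Slc2a1. The Slc2a8 and Slc2a2 promoters did not hold it, and 32.74% of all promoters did. ACGTG or GCGTG thus occurred in promoters of genes that passed (Slc16a3, Slc2a1) and of genes that did not (Slc16a1, Slc2a8). A match is not shown to be a bound site. The bases C and G made up 73.6%, 66.4% and 76.4% of the Slc16a3, Slc2a1 and Slc16a1 runs. The shares over all promoters were not matched for this content.

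Slc2a1 (ENSMUSG00000028645, chromosome 4 of mm9, 118781316 to 118809935) encodes GLUT1, which serves basal glucose uptake in many cell types. The WT_CTCF libraries held 6097 and 6069 counts of it, and the MUT_CTCF libraries 8521 and 8344. Both MUT_CTCF libraries lay well above both WT_CTCF libraries, and the replicates of each line were close to each other. In normalized counts it went from 6095 ± 16.6 to 8416 ± 44.9 (SD, n = 2), or by 0.47 ± 0.0371 (standard error) on the log2 scale, with an adjusted p of 2.24e-14 in edgeR's quasi-likelihood test. By p, Slc2a1 ranked 5 among the 16264 tested genes. It shares 105 of its 2853 exon bases with Gm12868 on the opposite strand, which had at most 6 counts in any library.

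Slc2a3 (ENSMUSG00000003153, chromosome 6 of mm9, 122677827 to 122751658) encodes GLUT3, a transporter of high affinity for glucose. Its counts were 63128 and 63399 in the WT_CTCF and 71935 and 71463 in the MUT_CTCF libraries, the highest counts of the 9 genes. The groups did not overlap, although the rise was small beside that of Slc2a1. The rise was 0.17 ± 0.0209 (standard error) on the log2 scale, with an adjusted p of 1.39e-08 in edgeR's quasi-likelihood test, from 63388 ± 226 to 71560 ± 347 normalized counts (SD, n = 2). Its rank by p was 22.

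The other 3 glucose transporters were lower in level and did not give a call. Slc2a8 (ENSMUSG00000026791, chromosome 2 of mm9, 32828510 to 32837603), which encodes the intracellular hexose transporter GLUT8, had 912 and 811 counts in WT_CTCF and 937 and 885 in MUT_CTCF libraries. These groups overlapped, and the log2 fold change was 0.075 with a 95% interval from -0.11 to 0.26. Slc2a4 (ENSMUSG00000018566, chromosome 11 of mm9, 69756045 to 69761690), which encodes the insulin-responsive GLUT4 of muscle and fat, had 88 and 73 counts against 120 and 102. Both MUT_CTCF libraries were above both WT_CTCF libraries, and the log2 fold change of 0.46 was as large as that of Slc2a1, but it came from far fewer reads, with a 95% interval from -0.083 to 1.00 (adjusted p = 0.444, edgeR's quasi-likelihood test). Slc2a2 (ENSMUSG00000027690, chromosome 3 of mm9, 28596825 to 28627278), which encodes the low-affinity GLUT2 of liver and pancreatic beta cells, had 7 and 7 counts against 10 and 6. No difference in Slc2a2 could be detected at this depth.

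Among the lactate transporters, Slc16a3 passed the test and Slc16a1 did not. Slc16a3 (ENSMUSG00000025161, chromosome 11 of mm9, 120809794 to 120822182) encodes MCT4, which is known for lactate export from strongly glycolytic cells. In WT_CTCF mESCs 1407 and 1467 counts were found, and in MUT_CTCF mESCs 2904 and 2981, with a wide gap between the groups. The rise was 1.03 ± 0.0614 (standard error) on the log2 scale, with an adjusted p of 1.58e-19 in edgeR's quasi-likelihood test, from 1440 ± 43.3 to 2937 ± 82.3 normalized counts (SD, n = 2), and Slc16a3 ranked 2 of all tested genes by p. The study's own criterion asks for an unadjusted p under 0.05 and for more than a 2-fold change. By that rule it was the only transporter gene of the 9 to pass, against 0.947% of all tested genes called higher. The 95% interval of the fold, 1.87 to 2.22, spans that limit. Without WT_CTCF replicate 1 or without MUT_CTCF replicate 2, the log2 fold change was 0.998 in each case, just short of it.

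Slc16a3 shares 831 of its 5318 exon bases with Csnk1d on the opposite strand, and whether the counting used strand is not given in the sources used here. Csnk1d had 11090 and 11101 counts in WT_CTCF and 11107 and 11096 in MUT_CTCF libraries, and its log2 fold change was -0.0048 ± 0.0325 (standard error), with an adjusted p of 0.97 in the same edgeR test. Csnk1d itself showed no rise of the size seen in Slc16a3. Counts per gene cannot show how reads on the shared bases were assigned, so the part of these bases in the Slc16a3 rise was not tested.

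Slc16a1 (ENSMUSG00000032902, chromosome 3 of mm9, 104442591 to 104462385) encodes MCT1, which carries lactate and pyruvate in either direction. It had 7736 and 7791 counts in WT_CTCF and 8554 and 7823 in MUT_CTCF libraries. MUT_CTCF replicate 1 stood above the other 3 libraries, and MUT_CTCF replicate 2 was close to the WT_CTCF libraries. The log2 fold change of 0.071 had a 95% interval from -0.0039 to 0.15 and did not pass (adjusted p = 0.367, edgeR's quasi-likelihood test). Omission of MUT_CTCF replicate 2 gave 0.12, and omission of MUT_CTCF replicate 1 gave 0.015. Slc16a7 (ENSMUSG00000020102, chromosome 10 of mm9, 124663520 to 124766019), which encodes the high-affinity MCT2, had 0 counts in all 4 libraries. A count of 0 allows up to 3 counts, which is 0.0740 CPM in the library with the fewest counts and covers counting error only.

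Bsg (ENSMUSG00000023175, chromosome 10 of mm9, 79167103 to 79174724) stood at 15943 and 15967 counts in the WT_CTCF and 17122 and 17425 in the MUT_CTCF libraries. The groups were apart, by a small margin. The rise was 0.11 ± 0.0292 (standard error) on the log2 scale, with an adjusted p of 0.0233 in edgeR's quasi-likelihood test, from 15986 ± 25.6 to 17241 ± 378 normalized counts (SD, n = 2). This was the weakest of the 4 calls. By edgeR's exact test its adjusted p was 0.0561, without a filter on low counts it was 0.26, and without any one of the 4 libraries it lay between 0.178 and 0.477. The lowest value over the alternatives was 0.00757.

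The order in which each MUT_CTCF library exceeded each WT_CTCF library held for 6 of the 9 genes, all but Slc2a8, Slc2a2 and Slc16a7. Over all tested genes, 22.3% showed that order. With either MUT_CTCF library left out, when the spread within a line comes from the WT_CTCF pair only, no gene of the whole table passed at 0.05 after adjustment. The log2 fold changes of Slc16a3, Slc2a1 and Slc2a3 were then 1.00 to 1.06, 0.46 to 0.47 and 0.17 to 0.18. At an unadjusted p under 0.05 (edgeR's quasi-likelihood method), 4 transporter genes were higher and 0 lower without MUT_CTCF replicate 1, where 4.65% of all tested genes were higher and 5.1% lower. Omission of MUT_CTCF replicate 2 gave 5 higher and 0 lower, against 4.06% and 5.3% of all tested genes.

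**Figure D2:**
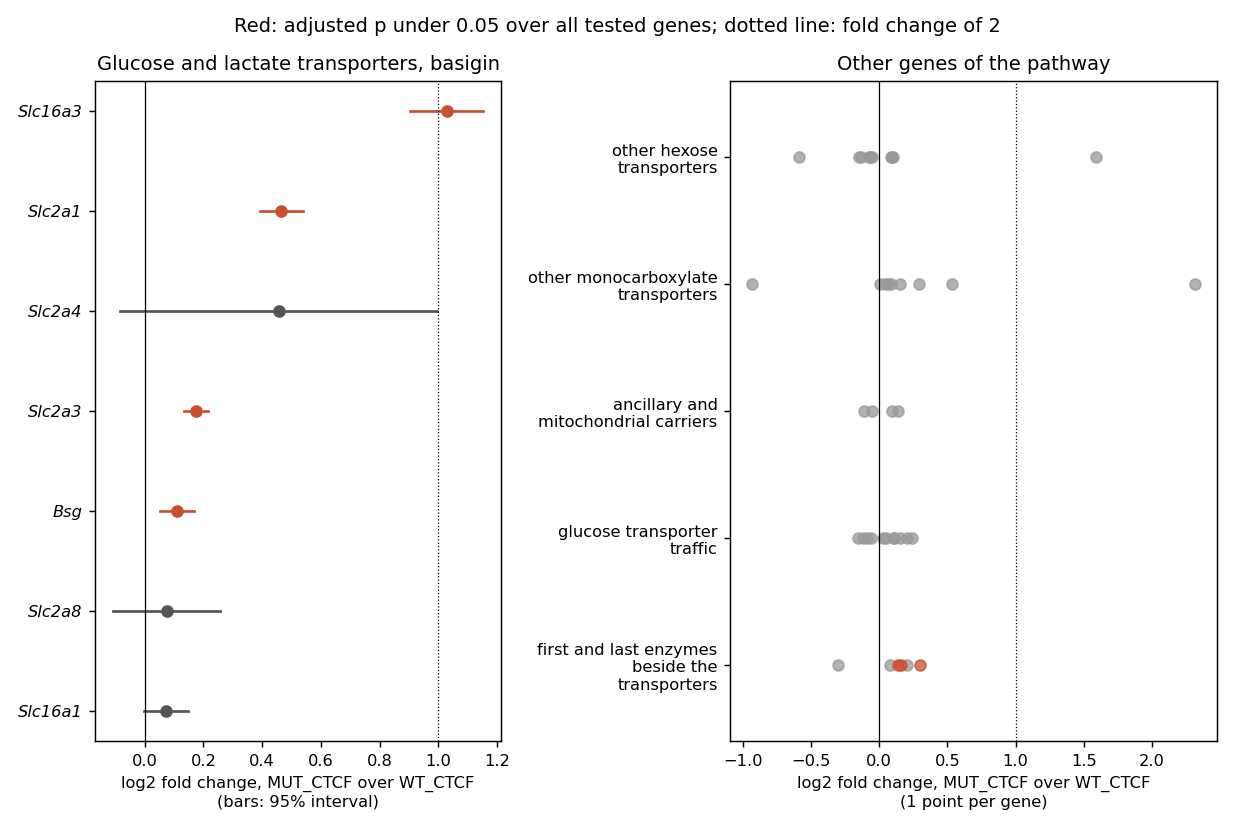
Left, log2 fold change (horizontal axis) of the 7 tested transporter genes with its 95% interval, ordered by size, and right, that of genes from 5 further lists of the pathway, with a point for each gene shown. Red marks an adjusted p under 0.05 and the dotted line a fold change of 2. Slc16a3, Slc2a1, Slc2a3 and Bsg are red on the left, and on the right the red points are Ldha, Hk2 and Hk1.

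To compare levels between genes, counts were divided by the length of all exons of a gene (RPKM, reads per kb of exon after scaling by library size). In WT_CTCF mESCs, Bsg (224 ± 0.358 RPKM) and Slc2a3 (215 ± 0.765 RPKM) were highest, followed by Slc2a1 (52.4 ± 0.142), Slc16a1 (43.1 ± 0.239), Slc2a8 (9.06 ± 0.746), Slc16a3 (6.64 ± 0.200), Slc2a4 (0.698 ± 0.0916) and Slc2a2 (0.0625 ± 0.0000335). These are means ± SD with n = 2. Such an SD can fall below counting error, as for Slc2a2, which had 7 counts in each WT_CTCF library. This also held at high counts in WT_CTCF, for Slc2a1 (6097 and 6069 counts) and Bsg (15943 and 15967 counts). These SDs are therefore no measure of precision. In MUT_CTCF mESCs, Slc2a3 (242 ± 1.17 RPKM) and Bsg (241 ± 5.29 RPKM) did not differ beyond their spread. Slc16a3 (13.5 ± 0.379 RPKM) stood above Slc2a8 (9.54 ± 0.294 RPKM) there, the reverse of their order in WT_CTCF mESCs. When the length of the longest coding transcript was used instead, a choice made after seeing the data, Slc2a3 came first in both lines (393 ± 1.40 and 443 ± 2.15 RPKM) and the order of the other 8 among themselves, averaged over the 4 libraries, was as before.

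The largest gain in level was not that of the largest fold. The mean level of Slc2a3 was higher by 27.7 RPKM in MUT_CTCF mESCs, that of Slc2a1 by 19.9, that of Bsg by 17.6 and that of Slc16a3 by 6.90 RPKM. Summed over the 5 glucose transporters, the level was 277 and 277 RPKM in the WT_CTCF libraries, compared with 325 and 325 RPKM for MUT_CTCF. Slc2a3 made up 77.5% ± 0.337 of this sum in WT_CTCF and 74.5% ± 0.277 in MUT_CTCF mESCs, and Slc2a1 18.9% ± 0.0367 and 22.2% ± 0.144 (SD, n = 2). Gains, sums and shares depend on the gene length used, which these SDs do not cover. By the longest coding transcript, the WT_CTCF means were 393 RPKM for Slc2a3 and 57.3 RPKM for Slc2a1. The sum of the 3 lactate transporters was 49.4 and 50.04 RPKM in WT_CTCF and 60.2 and 57.3 RPKM in MUT_CTCF libraries. The share of Slc16a3 in it went from 13.3% ± 0.284 to 23.1% ± 1.45 (SD, n = 2), with Slc16a1 as the remainder.

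**Figure D3:**
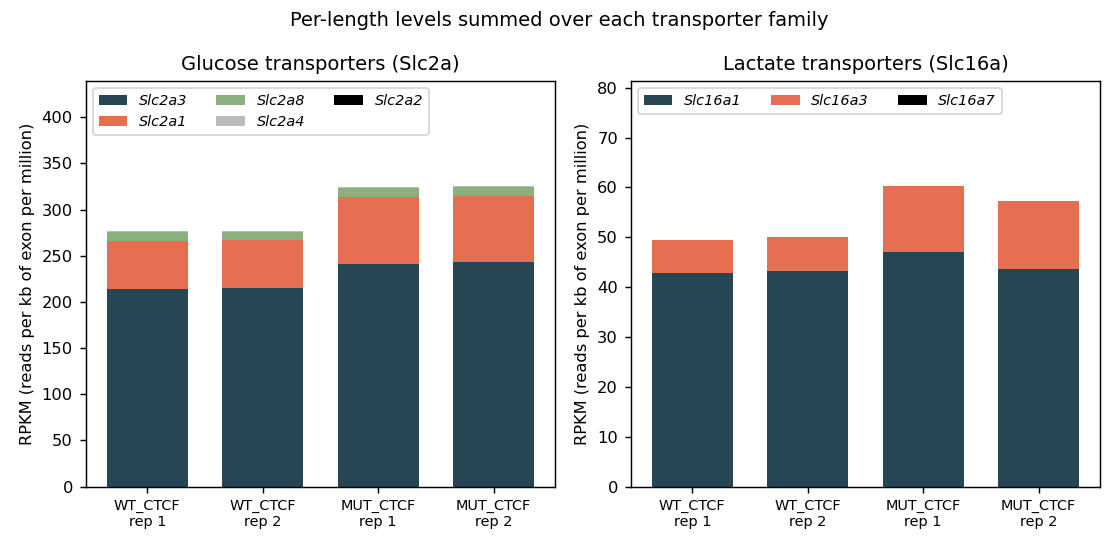
RPKM (vertical axes, linear and from 0) of the glucose transporters (left) and the lactate transporters (right), stacked by gene, with a bar for each library. The glucose transporter bars reach 277 RPKM in both WT_CTCF and 325 RPKM in both MUT_CTCF libraries, and the Slc16a3 segment grows from 6.50 and 6.78 to 13.3 and 13.8 RPKM.

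Ratios of 2 genes inside a library do not depend on how libraries are scaled. The ratio of Slc16a3 to Slc16a1 per kb of exon was 0.151 and 0.157 in the WT_CTCF libraries, compared with 0.283 and 0.317 for MUT_CTCF, a difference of 0.96 on the log2 scale. That of Slc2a1 to Slc2a3 was 0.245 and 0.243 against 0.301 and 0.297, a log2 difference of 0.29. Relative to Bsg, Slc2a1 was higher in both MUT_CTCF libraries by 0.36 on the log2 scale, while the ratio of Slc16a1 to Bsg overlapped between the lines, with a log2 difference of -0.039 that turned to 0.038 without MUT_CTCF replicate 2. Slc16a3 relative to Slc2a1 was higher by 0.56, and the log2 ratio of Slc2a8 to Slc2a1 was lower in both MUT_CTCF libraries, by -0.39. For the 5 pairs whose groups did not overlap the exact permutation test gave p = 0.333 (two-sided), which is the smallest that 2 libraries against 2 allow, and for Slc16a1 to Bsg p = 1. A test of these ratios with so few libraries could therefore not reach 0.05.

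**Figure D4:**
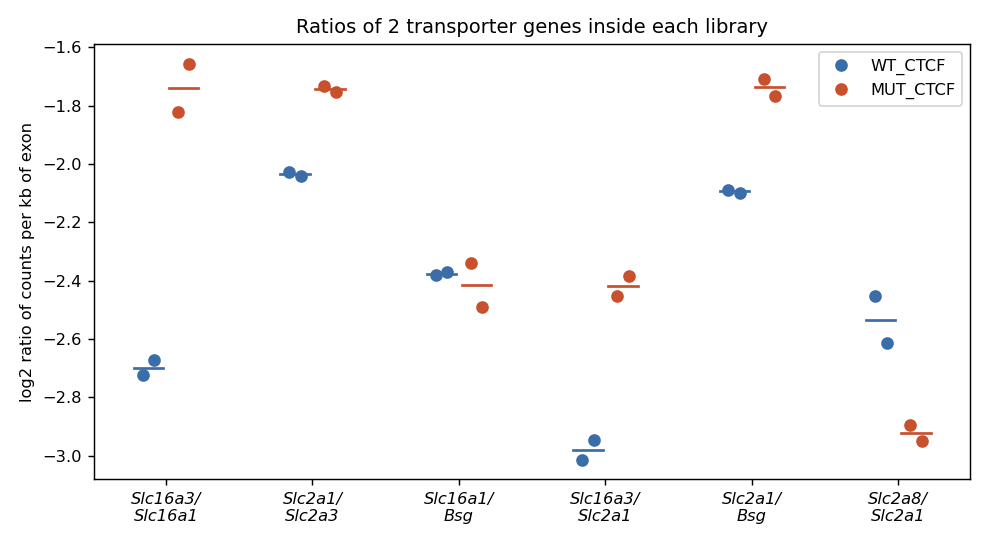
log2 ratio of counts per kb of exon (vertical axis) for 6 pairs of genes inside each library, with WT_CTCF in blue, MUT_CTCF in red, a point for each library and a line at the mean of 2. The lines are apart for all pairs but Slc16a1/Bsg, and the distance is greatest for Slc16a3/Slc16a1, with a log2 difference of 0.96.

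No other gene of these transporter families passed the test. Of 14 other hexose transporters (Slc2a and sodium-linked Slc5a genes), 10 could be tested and none passed at an adjusted p under 0.05 by edgeR's quasi-likelihood method, with log2 fold changes from -0.59 to 1.59 and a median of -0.062. Of 13 other monocarboxylate transporters, 9 could be tested and none passed, with log2 fold changes from -0.93 to 2.32 and a median of 0.085. Since 1.56% of all tested genes were higher and 1.61% lower at this threshold, a list of this size would often hold no call. In each list 1 gene passed the study's criterion, at low counts, and both are named here after their values were seen. Slc2a6, which encodes GLUT6, had 15 and 9 counts in WT_CTCF and 51 and 22 in MUT_CTCF libraries (1.59 ± 0.611 on the log2 scale, adjusted p = 0.163 in the same edgeR test). Slc16a4 had 1 and 5 counts against 14 and 17 (2.32 ± 0.930, adjusted p = 0.189).

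Partners of the transporters other than Bsg gave no call. Emb, an ancillary protein of monocarboxylate transporters like basigin, and its relative Nptn had log2 fold changes of 0.13 and -0.052. Mpc1 and Mpc2, which form the carrier that brings pyruvate into mitochondria, had log2 fold changes of -0.11 and 0.093. Of 11 genes that govern the traffic of glucose transporters to and from the membrane, none passed, with log2 fold changes from -0.15 to 0.24. These include, named for their roles after the values were seen, the arrestins Txnip (0.10) and Arrdc4 (0.15), which draw GLUT1 from the surface, and the retromer genes Vps35 (-0.058) and Snx27 (0.050), which return it. At an unadjusted p under 0.05 (edgeR's quasi-likelihood test), Txnip, Arrdc4, Rab10 (0.11) and Sort1 (0.20) of this list were higher. Aspscr1 (-0.12) and Gipc1 (-0.087) were lower at that limit. The 5 further lists, with the enzymes described next, held 10, 9, 4, 11 and 7 tested genes. At an unadjusted p under 0.05, 11 of these genes were higher and 2 were lower, where 7.61% of all tested genes were higher and 7.65% lower. After adjustment 3 were higher and 0 lower, where 1.56% of all tested genes were higher and 1.61% lower. DESeq2 also gave 3 and 0.

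The 3 that passed were enzymes that stand next to the transporters in the pathway. Ldha, which makes lactate from pyruvate, had 31107 and 31137 counts in WT_CTCF and 38217 and 38662 in MUT_CTCF libraries, a rise of 0.30 ± 0.0244 (standard error) on the log2 scale with an adjusted p of 5.22e-14 in edgeR's quasi-likelihood test. Hk1 and Hk2, hexokinases that trap glucose as its phosphate, rose by 0.14 (adjusted p = 0.0111) and 0.16 (adjusted p = 0.000345) on the log2 scale in the same test. Ldhb (0.081), Ldhc (0.20) and Hk3 (-0.30) did not pass.

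Since CTCF acts on neighbourhoods of the genome, the tested genes within 500 kb of each transporter that rose were also read, a step added after seeing the data. Around Slc2a1, 0 of 16 genes passed at an adjusted p under 0.05 by edgeR's quasi-likelihood method, and around Slc2a3 0 of 17, including Nanog, which lies 13.2 kb away (log2 fold change 0.040, standard error 0.0216). Around Slc16a3, 4 of 46 passed: Pycr1 (0.32) and Fasn (0.18) were higher and Tex19.1 (-0.17) and Notum (-0.31) were lower. Around Bsg, 4 of 37 passed, with Palm (0.30) higher and Cnn2 (-0.35), Ptbp1 (-0.091) and ORF61 (-0.16) lower. Over all tested genes, 1.56% were higher and 1.61% were lower at this threshold. With so small a share, 0 calls among 16 or 17 genes says little about those neighbourhoods. The median log2 fold changes of all tested neighbours were 0.052, 0.049, -0.035 and 0.0056 around Slc2a1, Slc2a3, Slc16a3 and Bsg.

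The genes most like each transporter over the 4 libraries were found by the Euclidean distance of log2 CPM values centred on each gene, among 11586 other genes with at least 100 normalized counts. For Slc16a3 these were Bhlhe40 (distance 0.0496, log2 fold change 1.07) and Gm514 (0.0856, log2 fold change 1.04). For Slc2a1 they were Sox3 (distance 0.0126) and Scd2 (0.0165), for Slc2a3 As3mt (0.00798) and Reep5 (0.0114), and for Bsg Cdc42se2 (0.00747) and Eno1 (0.00995). Bhlhe40, Gm514, Scd2 and Eno1 had an adjusted p under 0.05 in edgeR's quasi-likelihood test. Sox3 (0.139), As3mt (0.415), Reep5 (0.183) and Cdc42se2 (0.0576) did not pass. With 4 libraries in 2 lines, genes of a similar fold change come out as alike by this measure.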

How the data were processed

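Both lines, WT_CTCF and MUT_CTCF, were measured by RNA-seq in 2 libraries each (4 in all). After trimming (Trim Galore 0.4.4) and alignment to mm9 (STAR), the authors deposited raw counts of uniquely mapped reads per gene from HTSeq-count 0.9.1. The annotation release and the strand setting are not given in the sources used here. The authors' own edgeR comparison (log2 fold change, average expression, p-value and false discovery rate per gene) was not used. Replicates were numbered by the labels. GENCODE M1 (mm9) named 37205 of 37620 genes, with Mpc1 and Mpc2 matched by older symbols.

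Genes passing edgeR's filterByExpr (minimum 10 counts) were scaled by TMM and tested with glmQLFit and glmQLFTest in edgeR 4.0.16 (R 4.3.3) on condition alone, after the fit had been tested on simulated data. The Benjamini-Hochberg method was applied across all 16264 genes tested. Standard errors are the log2 fold change over the root of F. The p-values set the difference between the lines against the spread between libraries of a line, and do not cover the spread between clones. The members and lists were chosen with earlier results of these data known. All 9 transporters, each further listed gene at an adjusted p under 0.05, genes of lists with 1 to 3 tested members, genes sharing exons with a transporter and the 2 genes nearest to each called transporter were to be named. Tried besides were a replicate block, omission of each library, no filter or 10 reads in every library, scaling by DESeq2's size factors or by library size alone, a fold limit of 1.5, and DESeq2 1.42.0 or the exact test of edgeR in place of the quasi-likelihood test. RPKM was computed here from the union of GENCODE exons. Replicates of a line differed beyond counting error (chi-square of 3.64 and 4.35 per degree of freedom), so none was counted as a duplicate. The result of 1 listed gene is not reported here.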

Additional observations from a re-analysis of the deposited data

How the results depend on the processing

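Slc16a3, Slc2a1 and Slc2a3 were higher in all 11 alternatives and had an adjusted p under 0.05 in 9 of them (edgeR or DESeq2), the exceptions being the fits without either MUT_CTCF replicate, where the adjusted p lay between 0.0607 and 0.18. Bsg was higher in all 11 and passed in 5. The count of transporter genes with an adjusted p under 0.05 was 0 to 3 when a library was left out (edgeR's quasi-likelihood test). The count past the study's criterion was 0 to 1, and that of the further lists was 0 to 3 with a library left out and 1 without a filter on low counts. In these fits the line with 1 library was assumed to vary like the other line. With a library left out, the log2 fold change of Slc2a8 ran from -0.0079 (without WT_CTCF replicate 2) to 0.16, and the log2 difference of the Slc16a1 to Bsg ratio from -0.12 to 0.038 (without MUT_CTCF replicate 2). The cause was not tested. Over all tested genes, 253 were higher and 262 lower at an adjusted p under 0.05, against 260 and 152 with library size only, 129 and 184 with DESeq2 and 26 and 3 without a filter.

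The labels number the replicates but name no shared batch, and deviations of same-numbered libraries did not go together across genes (r = -0.019). With the replicate number as a block, 4 transporter genes were higher and 0 lower at an adjusted p under 0.05, 1 higher and 0 lower at the study's criterion, and 4 genes of the further lists were higher and 0 lower. Depth limits Slc2a2, Slc2a4 and Slc16a7 most.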
